A study of Sus scrofa with 31 samples.

Results

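TSPO (ENSSSCG00000000033), the gene of the translocator protein, was followed over 5 groups of pig samples as a single gene out of 31907 in the count table. It was chosen by name, with its levels in these samples already known, so its own values are given as a description and without a test. RNA had been sequenced from 31 samples of 15 piglets, identified by their tags, and 9 of the piglets gave more than 1 sample. The count of pigs in the study's own text is not the same as that of the tags, and the tags were used here. The groups were alveolar macrophages (n = 3), microglia of the cerebellum, the frontal cortex and the hippocampus (n = 8 each) and whole hippocampal tissue (n = 4). All piglets were males of 24 to 26 days from Large White × Landrace sows inseminated with pooled Danish Duroc semen, 1 per litter, and all were killed under anaesthesia after an imaging study under sedation. The litters had been born in either of 2 kinds of housing, which the labels do not give per pig. Microglia were sorted as CD11b high, CD45 low cells from Percoll-cleared brain suspensions, and macrophages as F4/80 positive, CD163 low cells from lung lavage. Whole tissue was extracted with another kit than the sorted cells, so tissue and extraction cannot be told apart in the comparison of hippocampal microglia with hippocampal tissue.

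The translocator protein lies in the outer mitochondrial membrane, where it binds cholesterol, porphyrins and many synthetic ligands. Radioligands of TSPO are widely used in positron emission tomography as tracers of neuroinflammation, because binding rises in the brain where microglia and infiltrating macrophages are activated. Endogenous ligands include the diazepam binding inhibitor, and the protein has been described next to the voltage-dependent anion channels and the adenine nucleotide translocators.

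In RefSeq's annotation of Sscrofa11.1 the gene spans chromosome 5, positions 5723190 to 5735097, on the minus strand, in 4 exons of 799 bases in all. The first exon is untranslated, and the reading frame of 510 bases runs over exons 2 to 4. No other RefSeq gene overlaps it, and none of its exons matched another place in the genome over 50 bases, the read length, or more. The nearest protein-coding genes are TTLL12, 4186 bases away on one side, and MCAT, 7092 bases away on the other. The coding sequence is shown because it is the larger part of the transcript that the counts measure; capitals mark the start and the stop codon.
TSPO coding segment 1 (chr5:5726251-5726432, minus strand): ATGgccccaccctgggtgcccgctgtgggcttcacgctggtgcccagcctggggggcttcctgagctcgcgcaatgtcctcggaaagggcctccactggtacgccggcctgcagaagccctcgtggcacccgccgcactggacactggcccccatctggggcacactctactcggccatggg
TSPO coding segment 2 (chr5:5723945-5724083, minus strand): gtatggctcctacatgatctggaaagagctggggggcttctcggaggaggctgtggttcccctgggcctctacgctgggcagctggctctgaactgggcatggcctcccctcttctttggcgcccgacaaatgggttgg
TSPO coding segment 3 (chr5:5723411-5723599, minus strand): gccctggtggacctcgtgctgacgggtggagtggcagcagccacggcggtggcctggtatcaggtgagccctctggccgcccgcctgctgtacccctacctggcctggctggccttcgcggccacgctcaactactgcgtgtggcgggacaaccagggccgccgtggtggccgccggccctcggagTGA

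Sequencing gave 18438494 to 43477403 counts per sample, and levels are given as CPM, the usual depth-normalised count, relative to the counts on tested genes and scaled by TMM factors that ranged from 0.826 to 1.15. At these depths 3 counts, the floor used here, stood for 0.0656 to 0.150 CPM per library. Intervals and floors cover counting error only. The labelled cell types were checked against marker lists. The summed CPM of 8 measured microglia markers, among them P2RY12, CX3CR1 and SALL1, ranged from 3758 to 7683 in the microglia samples and from 256 to 472 in the macrophages. In the macrophages 8 measured markers of alveolar and border macrophages summed to 594 to 1043 CPM, carried mostly by CD163 and MRC1, while MARCO, FABP4 and LYVE1 were at 0 counts in all 3 libraries. The same 3 libraries also held 620 to 1205 CPM of 6 lymphoid markers, against 15.0 to 73.4 CPM in the microglia, and 494 to 1078 CPM of 5 monocyte and granulocyte markers, against 44.5 to 90.4 CPM. The part of these other cells in the TSPO level of the macrophage libraries was not tested.

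TSPO was abundant in alveolar macrophages and scarce or undetected in every other sample. The macrophage libraries of pigs 12821, 12829 and 12984 held 1715, 2344 and 3164 TSPO counts. These counts corresponded to 48.2, 63.0 and 69.2 CPM, with a mean of 60.1 ± 10.8 CPM (SD, n = 3). All 3 libraries lay above all 28 others, and the lowest of them was 15.99 times the highest microglia library.
Among the 24 microglia libraries the TSPO level ranged from 0 to 3.01 CPM, with a median of 0.749 CPM, and 6 of the 24 held no TSPO count. The mean of the macrophages was 57.4 times that of the microglia (1.05 ± 1.01 CPM, SD, n = 24). On the log2 CPM scale with a prior count of 2, which understates the change of low genes, macrophages were 6.75 above the mean of the 3 microglia groups. The macrophage library of pig 12984 had the highest TSPO level and the lowest lymphoid sum (620 CPM). It also had the highest sums of monocyte and granulocyte (1078 CPM), alveolar and border macrophage (1043 CPM) and microglia markers (471.5 CPM). With 3 libraries a link of TSPO to any of these sums was not tested.

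**Figure D1:**
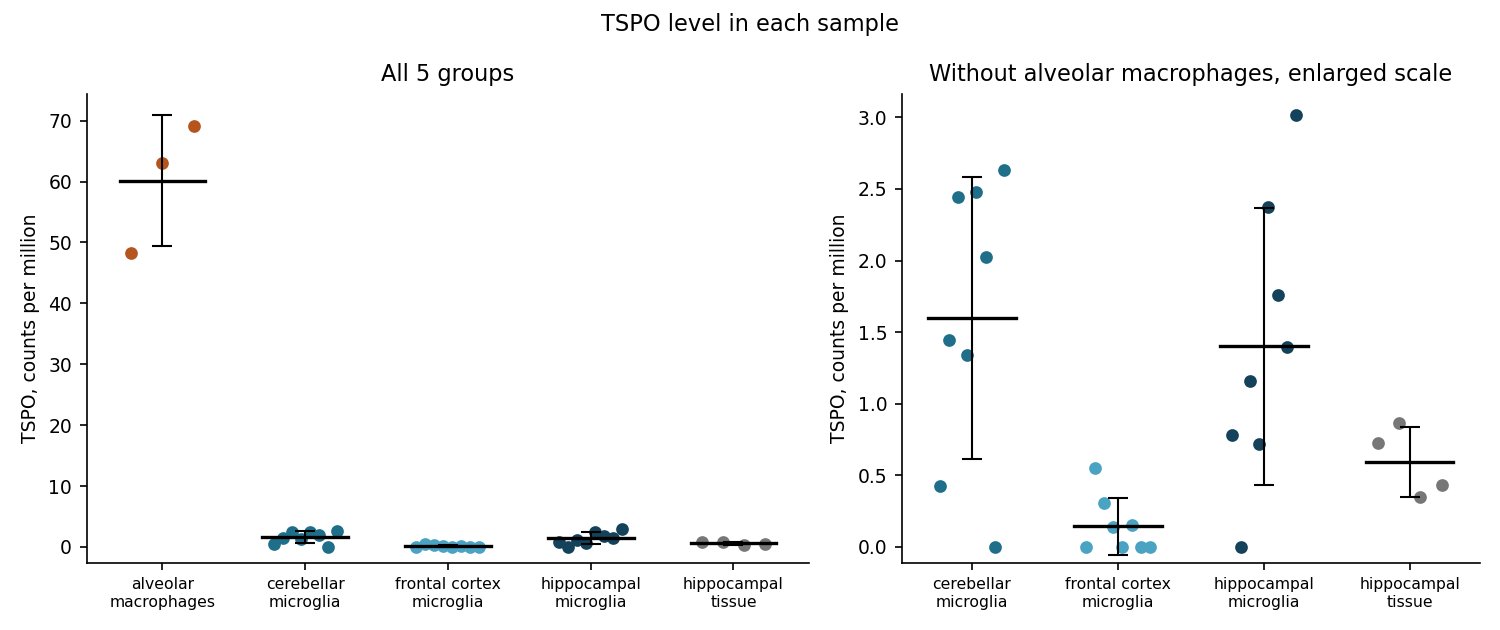
TSPO in CPM in each of the 31 samples (points), by group, with the mean (thick line) and SD (bars); the right panel repeats the 4 brain groups on an enlarged scale. The 3 macrophage samples sit between 48.2 and 69.2 CPM, and no other sample exceeds 3.01 CPM.

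In cerebellar microglia the 8 libraries held 0, 10, 37, 39, 41, 53, 61 and 63 TSPO counts. The levels ran from 0 through a median of 1.73 to 2.64 CPM, with a mean of 1.599 ± 0.983 CPM (SD, n = 8). Only the library of pig 12891 had no count, which allows a level of up to 0.150 CPM there.
Hippocampal microglia were alike in level, with 0, 20, 24, 31, 32, 55, 74 and 81 counts. Their median was 1.28 CPM, their highest library 3.01 CPM and their mean 1.40 ± 0.97 CPM (SD, n = 8). Again 1 library, that of pig 12758, had no count. The means of the cerebellar and hippocampal groups differed by a factor of 1.14, which is less than the spread within either group.

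Frontal cortex microglia had the lowest level of the 5 groups. Their libraries held 0, 0, 0, 0, 4, 5, 12 and 20 TSPO counts, so that 4 of 8 had none and the highest, of pig 12707, reached 0.554 CPM. The mean was 0.144 ± 0.199 CPM (SD, n = 8) and the median 0.0691 CPM. The 41 counts of all 8 libraries together gave 0.169 CPM, with an exact Poisson interval of 0.121 to 0.229 CPM (95%). Without pig 12707 the group mean was 0.0875 CPM, so the value rested largely on that library, but it stayed below the cerebellar and hippocampal means. The totals of the frontal cortex libraries ran from 22197936 to 36417294 counts, against 18438494 to 30029326 in the cerebellum and 23104791 to 36503520 in the hippocampus, and a library without a count allows at most 0.143 CPM.
The cerebellar mean was 11.13 times and the hippocampal mean 9.75 times the frontal cortex mean, or 2.93 and 2.78 on the log2 scale. Both ranges overlapped that of the frontal cortex at 0. The cerebellar library of pig 12583, at 0.427 CPM, also lay below the highest frontal cortex library. All but 2 of the cerebellar libraries and all but 1 of the hippocampal libraries lay above the highest frontal cortex library.
The frontal cortex libraries of pigs 12599 and 12891 also carried more RNA of other brain cells, with oligodendrocyte marker sums of 1850 and 1229 CPM where the median of the group was 312 CPM, and neither held a TSPO count. Without both the frontal cortex mean was 0.192 CPM and the log2 difference from the cerebellum 2.56. The summed microglia markers ranged from 4844 to 7305 CPM in the frontal cortex, within the 3758 to 7683 CPM of the cerebellum.

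Hippocampal tissue held TSPO at a low level. Its 4 libraries had 11, 14, 23 and 29 counts, or 0.347, 0.430, 0.723 and 0.864 CPM, with a mean of 0.591 ± 0.243 CPM (SD, n = 4). In bulk tissue fewer cells of a type and less RNA per cell cannot be told apart. Hippocampal microglia had a mean 2.37 times that of the tissue, a log2 difference of 0.70, and 5 of 8 microglia libraries lay above all 4 tissue libraries. The groups nevertheless overlapped. The microglia of pigs 12817 and 12750, at 0.716 and 0.783 CPM, lay within the tissue range, and 1 microglia library had no count. Without the library that had no count, of pig 12758, the log2 difference was 1.24, and without the microglia of pig 12872 it was 0.47. The microglia markers summed to 4289 to 6054 CPM in the hippocampal microglia and to 239 to 339 CPM in the tissue, a far wider gap than that of TSPO. Of the frontal cortex libraries only that of pig 12707 reached the range of the tissue. Macrophages were 102 times the tissue mean. By mean the order of the 5 groups was macrophages, cerebellar microglia, hippocampal microglia, hippocampal tissue and frontal cortex microglia, and of the neighbouring groups only macrophages and cerebellar microglia did not overlap.

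Samples of the same pig gave the same directions. Pig 12821 had 48.2 CPM in macrophages, 2.48 CPM in cerebellar and 2.37 CPM in hippocampal microglia, so its macrophages were 19.4 and 20.3 times its microglia. In pig 12829 macrophages were 35.8 times hippocampal microglia. The mean difference of macrophages from microglia within these 2 pigs, the value with the pig as a block, was 4.69 on the log2 scale and thus smaller than the 6.75 between the group means; neither pig had a frontal cortex library.
In each of the 4 pigs with both samples TSPO was higher in hippocampal microglia than in hippocampal tissue, by 2.04, 3.28, 4.04 and 7.003 times. The mean log2 difference within these pigs was 1.76, against 0.70 between the unpaired group means.
Cerebellar microglia were above frontal cortex microglia in 5 of 6 pigs, and the sixth, pig 12891, had no count in either. In pigs 12750 and 12847 the cerebellar level was 17.7 and 13.2 times the frontal cortex level. In pigs 12599, 12758 and 12902 the frontal cortex libraries had no count, and the cerebellar level was 11.05, 14.1 and 26.6 times the floor of 3 counts in that library. Hippocampal microglia were above frontal cortex microglia in 2 of 3 pigs, by 5.66 and 9.16 times, and pig 12758 had no count in either. In all 4 pigs with both, the cerebellar level was above the hippocampal level, by factors of 1.05, 1.44 and 3.12 where both had counts. In pig 12758 the cerebellar level was 11.6 times the floor of the hippocampal library.

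**Figure D2:**
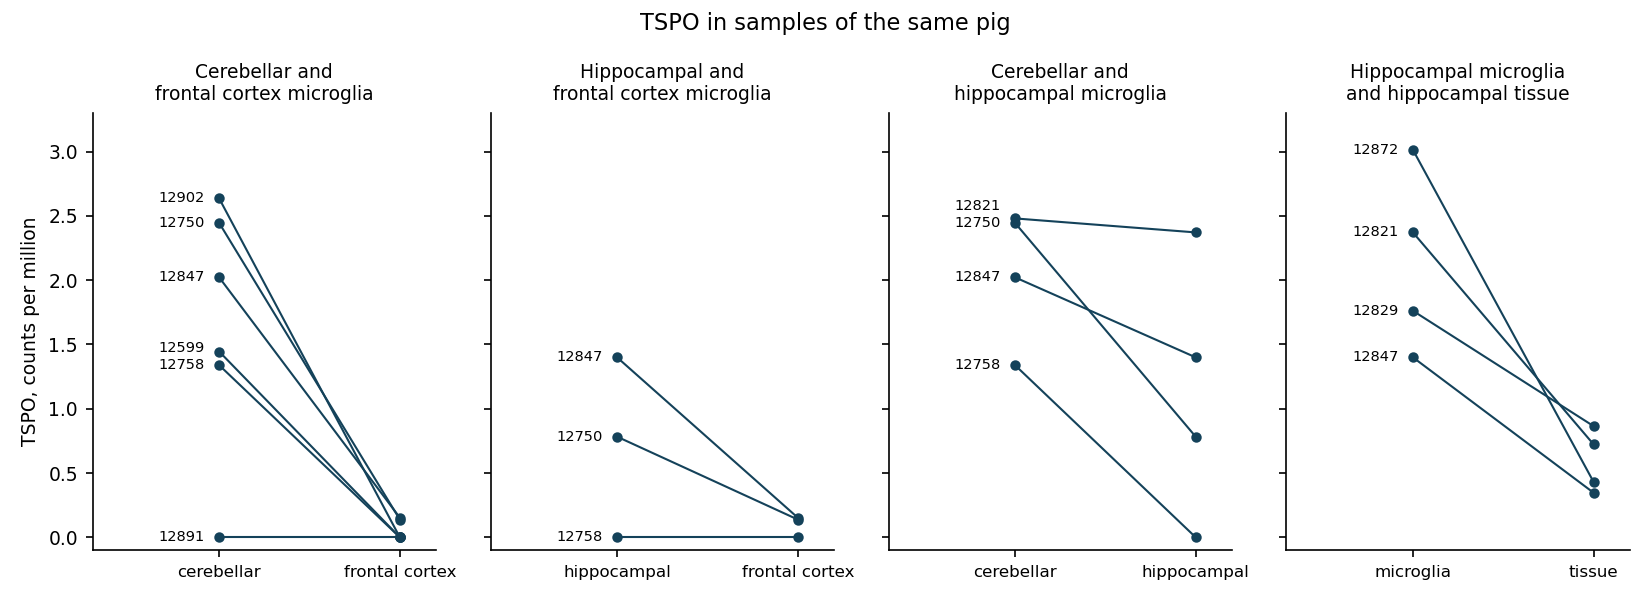
TSPO in CPM in samples of the same pig, joined by a line and marked with the pig's tag, for 4 pairs of groups. No line rises from left to right: 5 of 6 pigs had more TSPO in cerebellar than in frontal cortex microglia and 4 of 4 had more in hippocampal microglia than in tissue.

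TSPO was next set beside 14 other proteins that have been proposed as imaging targets of neuroinflammation, with levels divided by the length of their annotated exons in RefSeq (CPM per kilobase), since levels of different genes can only be compared per length. In alveolar macrophages TSPO ranked first of the 15 in all 3 libraries, at 75.3 ± 13.5 CPM per kilobase (SD, n = 3). CSF1R, the receptor of colony stimulating factor 1 on which macrophages and microglia depend, followed at 51.4 ± 20.3 CPM per kilobase, and in 0 of 3 libraries was it above TSPO. Before the division by length CSF1R was the higher, at 207 ± 82.0 CPM against 60.1 ± 10.8 CPM, so the first rank rests on the lengths. The counts were made on the Ensembl annotation, and other lengths were not tried.
In microglia the order was another. CSF1R led with 637 ± 230, 669 ± 114 and 631 ± 74.7 CPM per kilobase in the cerebellum, frontal cortex and hippocampus (SD, n = 8 each), while TSPO stood at 2.00 ± 1.23, 0.180 ± 0.249 and 1.75 ± 1.21 CPM per kilobase. By mean TSPO ranked 8th, 11th and 7th of 15 there. Between the libraries its rank ran from 6 to 10 in cerebellar and hippocampal microglia and from 9 to 14 in the frontal cortex. CX3CR1, the fractalkine receptor, reached 305 ± 54.2, 347 ± 88.7 and 318 ± 57.5 CPM per kilobase in the same order of regions. PTGS1, the constitutive cyclooxygenase, reached 81.2 ± 18.9, 98.3 ± 19.3 and 108 ± 12.9 CPM per kilobase. P2RY12, the purine receptor of resting microglia, had 60.5 ± 8.40, 100 ± 42.5 and 84.3 ± 15.6 CPM per kilobase.
In hippocampal tissue TSPO ranked 10th or 11th in the single libraries, with 0.740 ± 0.305 CPM per kilobase (SD, n = 4) against 17.2 ± 2.08 for CSF1R.

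**Figure D3:**
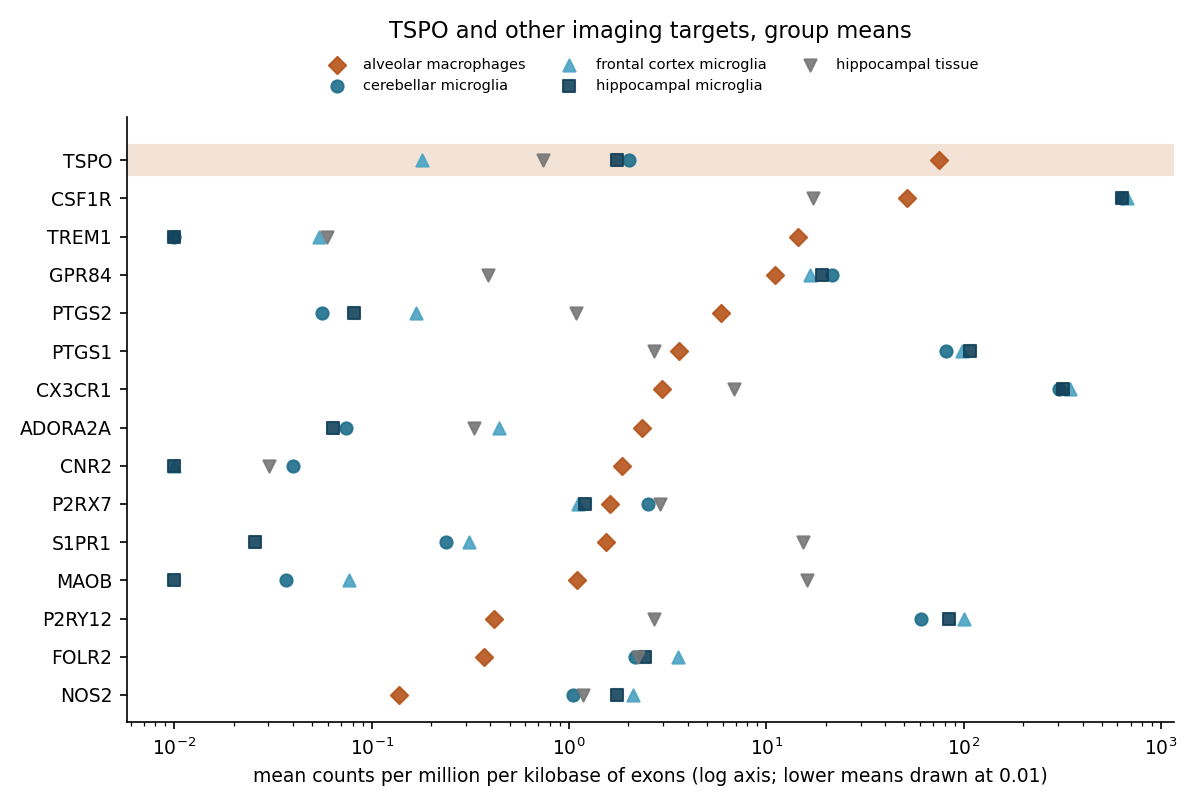
Mean level of TSPO and 14 other imaging targets in the 5 groups, in CPM per kilobase of annotated exons on a log axis, with means under 0.01 drawn at 0.01. TSPO (shaded) is at 75.3 in alveolar macrophages and at 2.00 or less in the other 4 groups, whereas CSF1R is highest in the 3 microglia groups.

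Genes around TSPO were then examined in the same fit over all tested genes, in 7 lists of 98 symbols. Of these, 90 were matched to the table and 75 passed the filter of over 10 CPM in every sample of at least 1 group. TSPO itself passed it only through the macrophages, as did PTGS2. MAOB, S1PR1 and CYP46A1 passed it only through the tissue. SOAT1 passed it only through cerebellar and hippocampal microglia, and PTGS1 and HMOX1 only through the 3 microglia groups. Where such a gene was called higher in the group that let it pass, the call is a description. Between microglia and macrophages 12 of the 75 were higher in microglia and 8 lower (adjusted p under 0.01 and over 3-fold), beside 22.3% of all 11633 tested genes, 12.2% higher and 10.1% lower. The median log2 fold change was -0.04 over the 75 and 0.06 over all tested genes. Between hippocampal microglia and tissue 19 were higher and 7 lower (over 4-fold), beside 33.8% of all genes, 11.7% higher and 22.1% lower. The medians were 0.15 and -0.08. Between the 3 regions 4 of the 75 were called by the F test, beside 2.03% of all genes.

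**Figure D4:**
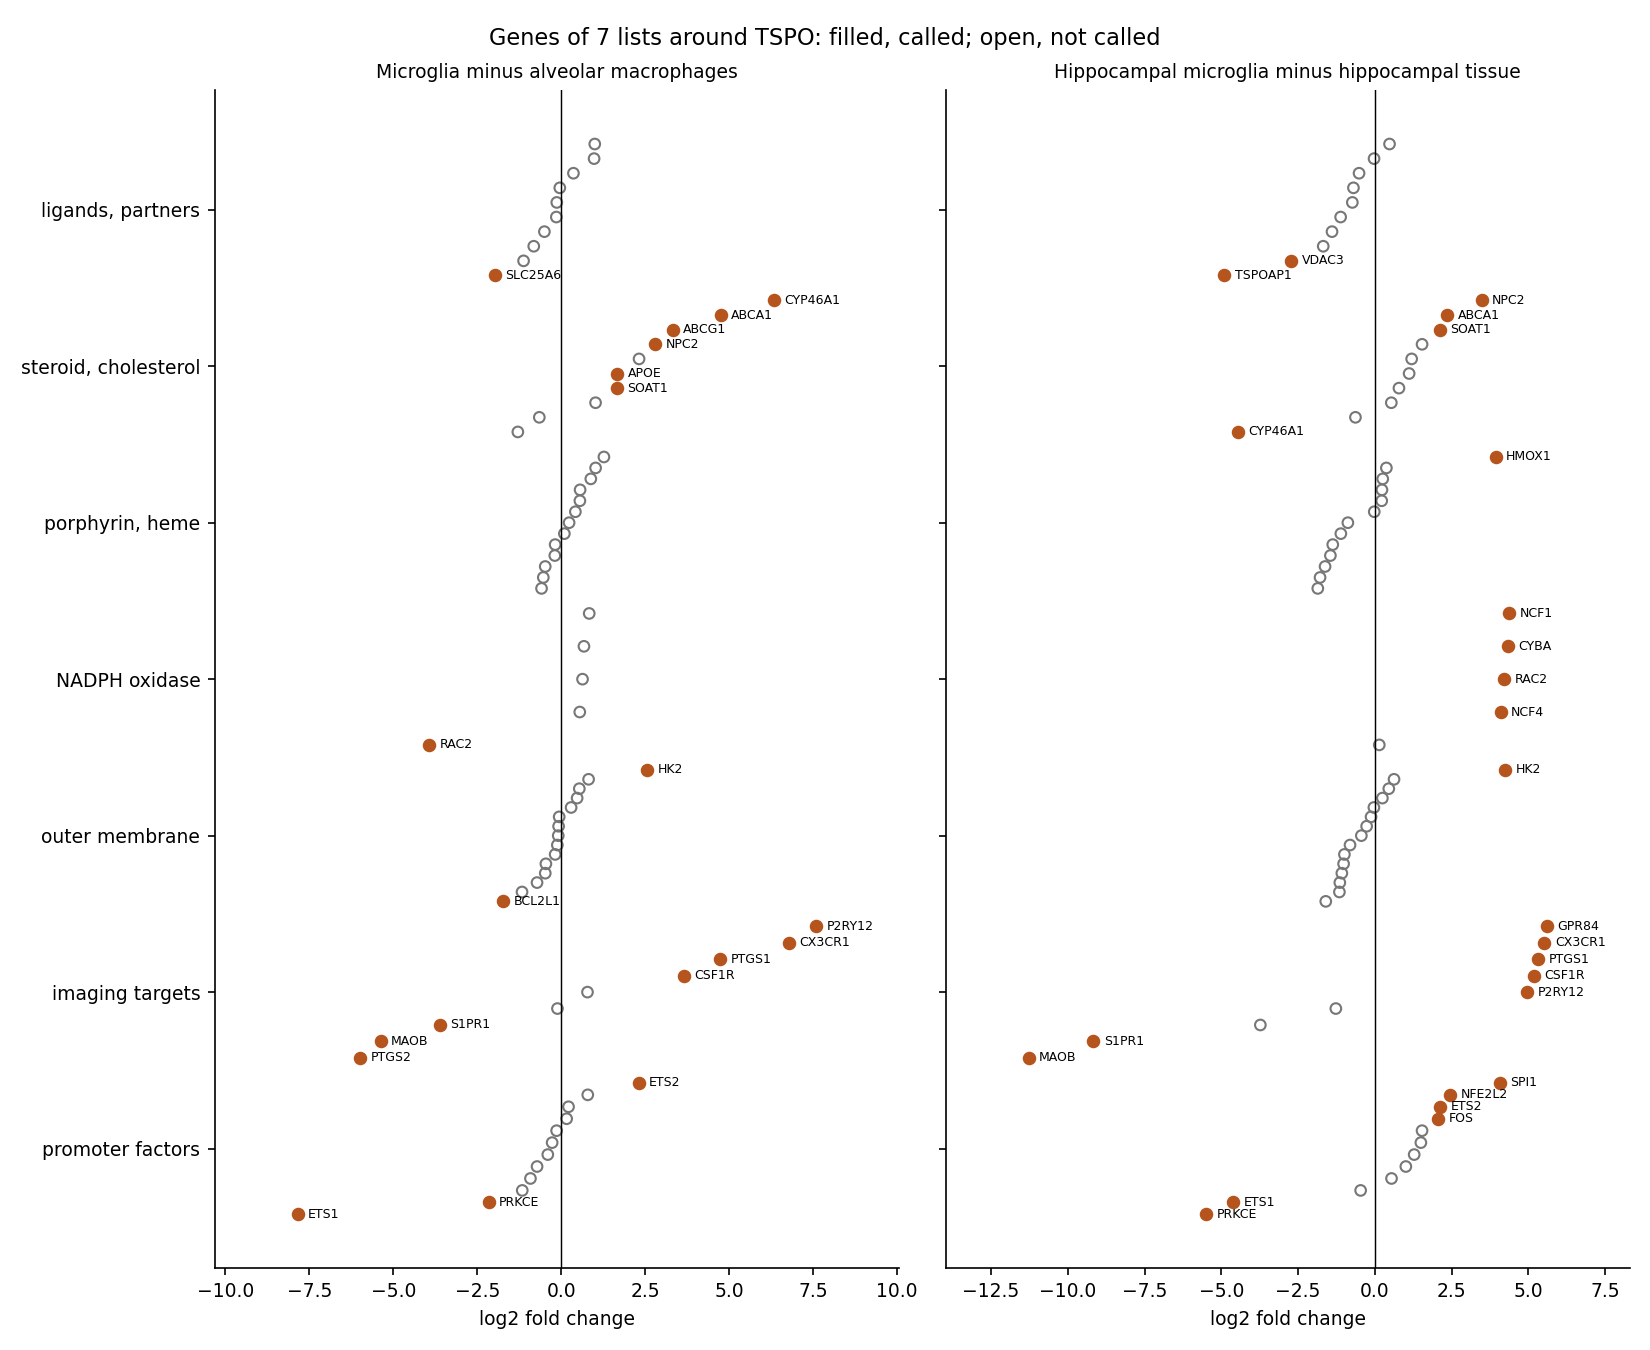
Log2 fold change of 74 of the 75 tested genes of 7 lists in microglia against alveolar macrophages (left) and in hippocampal microglia against hippocampal tissue (right), from edgeR; filled points passed both thresholds and are named. Of the ligands and partners 1 of 10 is called on the left and 2 of 10 on the right, all lower in microglia. Over all tested genes 10.1% are lower on the left and 22.1% on the right. The outermost values, such as those of MAOB and S1PR1, rest on groups near 0 counts.

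Of all tested genes 10.1% were lower in microglia than in macrophages and 12.2% higher. Of the ligands and partner proteins of TSPO, 1 of 10 tested was lower and none was higher. This was SLC25A6, an adenine nucleotide translocator, at 730 ± 185 CPM in macrophages and 185 ± 36.2 CPM in microglia (-1.98 on the log2 scale, SE 0.14, adjusted p = 4.87e-13). DBI, whose product is the endogenous ligand, had 54.9 ± 7.99 CPM in macrophages and 53.7 ± 10.8 CPM in microglia, so that the level of the ligand differed by less than its spread where that of TSPO differed 57.4-fold. The other adenine nucleotide translocators had 17.9 ± 3.82 and 36.0 ± 6.89 CPM (SLC25A4) and 68.5 ± 7.01 and 88.1 ± 14.9 CPM (SLC25A5).
VDAC1 had 48.8 ± 2.73 CPM in macrophages and 96.5 ± 14.7 CPM in microglia, and VDAC3 27.3 ± 4.21 and 12.5 ± 3.04 CPM; both encode voltage-dependent anion channels, and both passed the adjusted p (7.94e-08 and 1.37e-05) but not the 3-fold threshold. ACBD3, which anchors protein kinase A to TSPO, had 67.3 ± 3.67 and 47.6 ± 7.26 CPM, and PRKAR1A, a regulatory subunit of that kinase, 256 ± 6.05 and 233 ± 40.5 CPM. ATAD3A, a mitochondrial membrane ATPase, had 35.6 ± 5.82 and 20.2 ± 5.50 CPM. TSPOAP1, which encodes a TSPO-associated protein of synapses, had 16.2 ± 2.95 and 16.9 ± 18.9 CPM. TSPO2, the paralogue known from erythroid cells, was at 0 counts in all 31 samples.

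Against hippocampal tissue 2 of the same 10 were lower in hippocampal microglia and none was higher (22.1% and 11.7% of all tested genes). TSPOAP1 had 6.69 ± 4.93 CPM in microglia and 200.1 ± 38.01 CPM in tissue (log2 fold change -4.90, SE 0.73, adjusted p = 9.68e-07), and VDAC3 had 12.1 ± 3.18 and 80.1 ± 4.44 CPM (-2.72, SE 0.21, adjusted p = 2.08e-12). The tissue libraries also carried 2905 to 3552 CPM of neuron markers, against 3.33 to 46.7 CPM in hippocampal microglia, and their part in the level of TSPOAP1 was not tested.
DBI had 58.9 ± 10.03 CPM in microglia and 189 ± 30.1 CPM in tissue, SLC25A4 36.3 ± 6.81 and 95.3 ± 10.02 CPM, and SLC25A6 188 ± 41.6 and 407 ± 19.9 CPM, all short of the 4-fold threshold. SLC25A5, with 88.1 ± 16.1 and 63.2 ± 1.37 CPM, was higher in microglia (log2 fold change 0.48, SE 0.14) but short of the threshold. The remaining 4, VDAC1, ACBD3, PRKAR1A and ATAD3A, had log2 fold changes between -0.73 and -0.02.

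Among genes of steroid and cholesterol handling 6 of 10 tested were higher in microglia than in macrophages and none was lower. The shares over all tested genes were 12.2% and 10.1%. ABCA1, which exports cholesterol, had 19.7 ± 5.58 CPM in macrophages and 527 ± 110 CPM in microglia (4.75 on the log2 scale, SE 0.28, adjusted p = 8.42e-15). ABCG1, another cholesterol exporter, had 6.60 ± 2.95 and 66.25 ± 15.8 CPM (3.32, SE 0.31), and NPC2, which moves cholesterol out of lysosomes, 31.9 ± 11.2 and 220 ± 49.3 CPM (2.79, SE 0.25). CYP46A1, the neuronal cholesterol 24-hydroxylase, was near the floor in macrophages (0.0656 ± 0.114 CPM) and at 6.70 ± 5.90 CPM in microglia. With limma-voom its adjusted p was 0.0114. Of 6 neuron markers, 5 were likewise called higher in microglia, and their sum was 3.33 to 178 CPM in microglia and 0.699 to 3.40 CPM in macrophages; their part in the level of CYP46A1 was not tested. APOE and SOAT1 completed the 6, at 1.66 (SE 0.27) and 1.65 (SE 0.35). Both lost their call without the filter (1.54 and 1.52) and without the macrophages of pig 12829 (1.503 and 1.57), and APOE also without those of pig 12821 (1.39).
CYP11A1, which cleaves the cholesterol side chain to make pregnenolone, had 0.945 ± 0.732 CPM in macrophages, 0.0127 ± 0.0623 CPM in microglia and 1.01 ± 0.18 CPM in tissue, and was not tested. STAR, a transporter of cholesterol in steroid-making cells, had 10.9 ± 1.76, 8.37 ± 1.92 and 12.99 ± 0.698 CPM and was not tested either.
Against tissue 3 of the 10 were higher in hippocampal microglia and 1 lower, beside 11.7% and 22.1% of all tested genes. NPC2 had 208 ± 36.3 CPM in microglia and 18.6 ± 0.82 CPM in tissue (3.48, SE 0.24, adjusted p = 2.61e-13), ABCA1 526 ± 89.1 and 102 ± 15.4 CPM (2.37, SE 0.21) and SOAT1 34.9 ± 10.3 and 8.06 ± 1.37 CPM (2.11, SE 0.34). SOAT1 fell short of 4-fold with the pig as a block (1.97) and with RLE factors (1.90). CYP46A1 was the lower one, at 4.48 ± 1.97 against 98.3 ± 26.7 CPM (-4.45, SE 0.56).

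None of the 13 tested porphyrin and heme genes was called between microglia and macrophages, beside 22.3% of all tested genes. The median log2 fold change of the 13 was 0.23. Among those that passed the adjusted p but not the fold threshold was ALAS1, the first enzyme of heme synthesis, at 32.4 ± 4.51 CPM in macrophages and 47.6 ± 6.68 CPM in microglia (adjusted p = 0.000725). Against tissue only HMOX1, the inducible heme oxygenase, was called, at 30.8 ± 11.8 CPM in hippocampal microglia and 2.00 ± 0.77 CPM in tissue (3.94, SE 0.40, adjusted p = 6.36e-10). HMOX1 had passed the filter only through microglia groups, so its call is a description. Over all tested genes 33.8% were called against tissue.
Of the phagocyte NADPH oxidase, the enzyme complex of the oxidative burst, 1 of 6 tested subunits was lower in microglia than in macrophages. Over all tested genes the share was 10.1%. The subunit was RAC2, the small GTPase of blood cells, at 500 ± 144 CPM in macrophages and 32.9 ± 9.10 CPM in microglia (-3.94, SE 0.17, adjusted p = 1.01e-17). Against tissue 5 of the 6 were higher in hippocampal microglia, among them NCF1 (81.1 ± 10.5 against 3.88 ± 0.82 CPM, 4.38, SE 0.19) and CYBA (174 ± 44.7 against 8.59 ± 1.64 CPM, 4.34, SE 0.23). The exception was RAC1, the widely expressed GTPase, with 306 ± 32.2 and 277 ± 15.7 CPM. Over all tested genes 11.7% were higher in hippocampal microglia.

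Of 15 tested genes of other outer mitochondrial membrane proteins 1 was higher and 1 lower, beside 12.2% and 10.1% of all tested genes. HK2, the hexokinase that docks on this membrane, was higher in microglia than in macrophages (313 ± 94.1 against 52.1 ± 20.9 CPM, 2.55, SE 0.26, adjusted p = 9.04e-10). BCL2L1, which blocks apoptosis there, was lower (31.1 ± 7.64 against 102 ± 33.5 CPM, -1.72, SE 0.18, adjusted p = 1.4e-09); without the macrophages of pig 12829 it fell below 3-fold, at -1.55. RAC2, BCL2L1 and SLC25A6 were all highest in that library (630, 124 and 920 CPM), which also had the highest lymphoid sum, 1205 CPM, and the part of lymphoid cells in their levels was not tested. The median log2 fold change of the 15 was -0.09. Against tissue HK2 alone was called (345 ± 39.2 against 18.1 ± 5.82 CPM, 4.25, SE 0.26), beside 33.8% of all tested genes. The import receptors TOMM20 and TOMM22 had 47.5 ± 12.9 and 66.0 ± 12.8 CPM in macrophages and 69.2 ± 21.1 and 29.4 ± 5.83 CPM in microglia.

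Of 9 tested other imaging targets 4 were higher and 3 lower in microglia than in macrophages, beside 12.2% and 10.1% of all tested genes. P2RY12 had 2.78 ± 1.36 CPM in macrophages and 545 ± 203 CPM in microglia (7.58, SE 0.49, adjusted p = 7.5e-14), CX3CR1 7.17 ± 6.99 and 785 ± 165 CPM (6.78, SE 0.48), PTGS1 9.56 ± 9.36 and 254 ± 53.1 CPM (4.73, SE 0.40) and CSF1R 207 ± 82.0 and 2602 ± 598 CPM (3.65, SE 0.30). The lower ones were PTGS2, the inducible cyclooxygenase (21.2 ± 3.58 CPM in macrophages, 0.368 ± 0.519 CPM in microglia), MAOB, the monoamine oxidase of astrocytes (3.05 ± 1.02 and 0.109 ± 0.233 CPM), and S1PR1, a sphingosine phosphate receptor (5.33 ± 0.78 and 0.660 ± 1.07 CPM). With the pig as a block these 3 were no longer called, with adjusted p = 0.024, 0.0397 and 0.023. S1PR1 was not called without the macrophages of pig 12984 either (adjusted p = 0.0169). PTGS2 had passed the filter only through the macrophages, so its call is a description.
The other targets were below the filter and went both ways. The cannabinoid receptor CNR2, TREM1 and ADORA2A shared the direction of TSPO. In macrophages CNR2 and TREM1 had 7.05 ± 1.93 and 15.0 ± 4.74 CPM. In microglia CNR2 and TREM1 had 0.0684 ± 0.175 and 0.0188 ± 0.0588 CPM. NOS2 and FOLR2 had the opposite direction, with higher means in microglia than in macrophages. None of these genes was tested.
Against tissue 5 of 9 were higher in hippocampal microglia and 2 lower, beside 11.7% and 22.1% of all tested genes. The highest fold change was that of GPR84, a receptor of medium-chain fatty acids, with 35.0 ± 8.02 CPM in microglia and 0.714 ± 0.412 CPM in tissue (5.61, SE 0.33, adjusted p = 5.23e-15). CX3CR1, PTGS1, CSF1R and P2RY12 followed at 5.53, 5.33, 5.20 and 4.96. MAOB (0.0140 ± 0.0397 against 44.4 ± 4.48 CPM) and S1PR1 (0.0889 ± 0.251 against 52.8 ± 16.5 CPM) were lower in microglia.

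Promoters of TSPO are known for clustered Sp1 sites and for regulation through protein kinase C epsilon, AP-1, ETS factors and STAT3, so the 250 bases before the annotated start in RefSeq are shown next to the levels of these factors. Capitals mark every GGGCGG, the letters of a GC box, which Sp factors bind.
TSPO upstream window (chr5:5735098-5735347, minus strand): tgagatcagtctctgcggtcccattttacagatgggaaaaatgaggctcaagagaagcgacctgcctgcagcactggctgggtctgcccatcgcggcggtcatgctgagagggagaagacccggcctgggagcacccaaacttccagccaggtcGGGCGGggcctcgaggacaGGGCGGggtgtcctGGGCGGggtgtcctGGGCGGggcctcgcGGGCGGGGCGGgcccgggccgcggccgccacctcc
The window held 6 matches of GGGCGG, all on the strand of the gene, and the last 2 overlap by 1 base. At least 1 match on either strand was present in 45.9% of 19556 windows of the same length before protein-coding genes. The GC content of the window was 69.6%, against a median of 57.6% over all windows. The letters TGANTCA (AP-1), CCAAT, CCGGAAGT (ETS), GAGGAAGT (PU.1) and TTCCNGGAA (STAT) were searched on both strands and were not in this window. They were present in 5.27%, 31.9%, 2.87%, 1.64% and 0.772% of all windows.

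Of 12 tested factors and the kinase, 1 was higher and 2 were lower in microglia than in macrophages. The shares over all tested genes were 12.2% and 10.1%. ETS1 had 899 ± 178 CPM in macrophages and 5.59 ± 6.56 CPM in microglia (-7.85, SE 0.55, adjusted p = 6.55e-13), PRKCE, the gene of protein kinase C epsilon, 55.4 ± 3.10 and 12.7 ± 6.34 CPM (-2.16, SE 0.29), and ETS2 36.1 ± 9.57 and 184 ± 58.2 CPM (2.30, SE 0.20). ETS1 is abundant in lymphocytes, whose marker sums in the macrophage libraries are given above. The part of such cells in the ETS1 level was not tested. SP1 had 204 ± 12.5 and 169 ± 19.2 CPM, SP3 137 ± 8.62 and 104 ± 14.3 CPM, and SPI1, the gene of PU.1, 165 ± 50.1 and 192 ± 28.5 CPM, and none of these was called.
Against tissue 4 were higher in hippocampal microglia and 2 lower, beside 11.7% and 22.1% of all tested genes. SPI1 had 193 ± 13.4 CPM in microglia and 11.4 ± 0.70 CPM in tissue (4.09, SE 0.18, adjusted p = 1.09e-17), and PRKCE 10.2 ± 4.35 and 456 ± 78.2 CPM (-5.49, SE 0.36). ETS1 was lower too (-4.62, SE 0.77), and NFE2L2 was higher (2.45, SE 0.22). ETS2 and FOS were also called, with 2.13 and 2.07, but both fell below 4-fold with RLE factors (1.92 and 1.86). FOS was not called with the pig as a block (adjusted p = 0.0458), nor without the hippocampal microglia of pig 12817 or 12872 or the tissue of pig 12829 or 12872 (1.97, 1.88, 1.97 and 1.92).

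Between the 3 regions, where the TSPO means differed up to 11.13-fold, 4 of the 75 genes were called by the F test. SOAT1, which esterifies cholesterol, had passed the filter only through cerebellar and hippocampal microglia, so its call is a description. SOAT1 had 61.1 ± 18.8 CPM in cerebellar, 15.5 ± 7.45 CPM in frontal cortex and 34.9 ± 10.3 CPM in hippocampal microglia (adjusted p = 6.01e-05), the same order of regions as TSPO. JUN, an AP-1 subunit, had 304 ± 105, 117 ± 63.4 and 183 ± 53.5 CPM (adjusted p = 0.00373), again in that order. ETS2 had the opposite order, with 131 ± 31.1, 244 ± 45.0 and 177 ± 27.4 CPM (adjusted p = 0.000563). PRKAR1A had 194 ± 14.1, 251 ± 35.4 and 253 ± 37.3 CPM (adjusted p = 0.0086). With the pig as a block 2 of the 4 were called, SOAT1 and ETS2. With DESeq2 9 were called, which included the 4, and 6 were called without the frontal cortex library of pig 12758.

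The tested genes whose profile over the 5 group means was most like that of TSPO were found by the root mean square difference of the centred mean log2 CPM. The choice depended on the measure: with z-scored samples only 1 of the 10 nearest, OLR1, was shared. By the first measure 9 of 11632 other genes lay within 1, and the median distance was 2.96. Of the 10 nearest, 7 had a symbol. OLR1, a scavenger receptor for oxidised lipoprotein, was first at 0.65, with 46.7 ± 28.2 CPM in macrophages and 2.76, 0.169, 0.702 and 0.214 CPM in cerebellar, frontal cortex and hippocampal microglia and tissue. SPIB, a B cell and dendritic cell transcription factor related to PU.1, followed at 0.72, with 29.6 ± 7.24 CPM in macrophages and 0.644, 0.117, 0.388 and 0.0534 CPM in the same order.
SOCS3, a feedback inhibitor of cytokine signalling, lay at 0.79, and CD72, a surface protein of B cells, at 0.82. MICAL1, an oxidoreductase that acts on actin, lay at 0.83 with the highest level of any named neighbour but one, 156 ± 10.1 CPM in macrophages. JCHAIN, the joining chain of secreted antibodies, lay at 0.99 with 1088 ± 1036 CPM in macrophages, the widest spread of the 7. FAS, the death receptor, was at 1.01. The order rests on 5 group means, and SPIB, CD72 and JCHAIN are known from B lineage cells, whose marker CD79B reached 39.1 to 94.6 CPM in the macrophage libraries; the part of such cells was not tested.

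**Figure D5:**
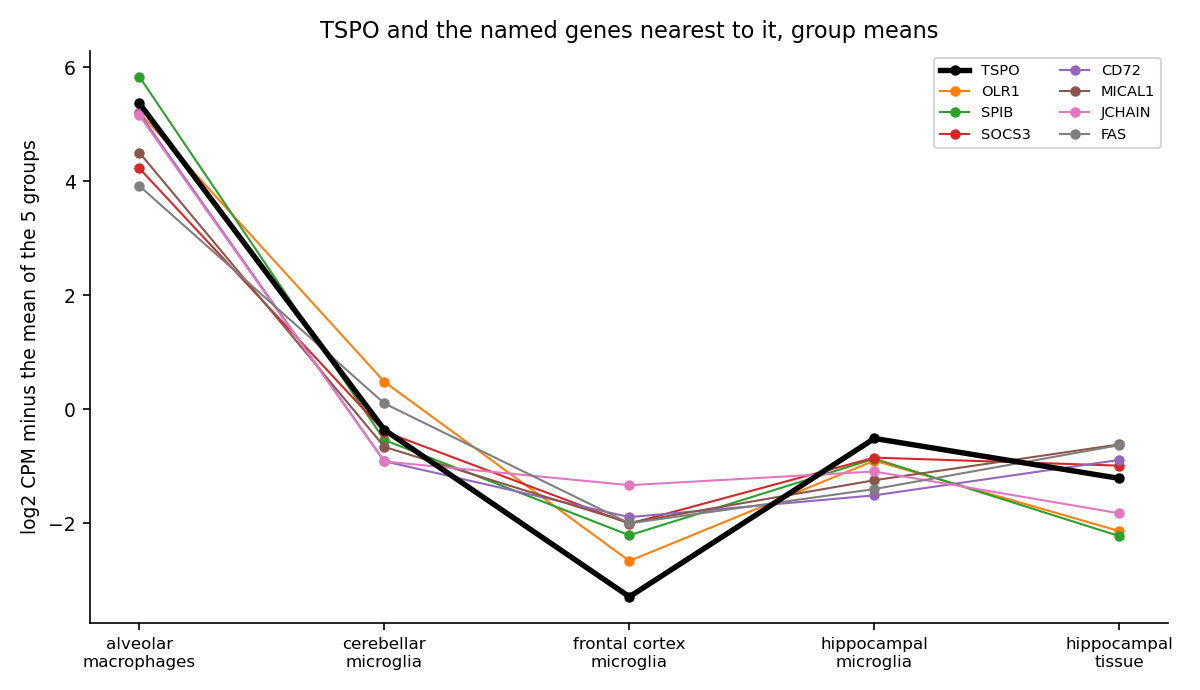
Mean log2 CPM of TSPO (thick line) and the 7 named genes nearest to it in the 5 groups, each centred on its own mean over the groups. The 7 genes were chosen for their likeness to TSPO, so the shared maximum in macrophages follows from the choice; the lowest point drawn is that of TSPO in frontal cortex microglia.

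The genes next to TSPO on chromosome 5 had varied profiles. MCAT, a mitochondrial acyltransferase gene, had 3.70 ± 1.75 CPM in macrophages, 2.99 ± 1.33, 3.83 ± 1.15 and 3.71 ± 1.45 CPM in cerebellar, frontal cortex and hippocampal microglia, and 4.66 ± 1.29 CPM in tissue. TTLL12 had 105 ± 15.2 CPM in macrophages, 57.7 ± 12.6, 44.0 ± 8.02 and 46.3 ± 8.22 CPM in microglia and 82.4 ± 19.5 CPM in tissue. It was lower in microglia than in macrophages (-1.10, SE 0.16, adjusted p = 7.45e-07), short of 3-fold, and its means had the same order of regions as TSPO. TTLL1 was highest in tissue, at 51.8 ± 9.48 CPM, and at 11.13 ± 1.08 CPM in macrophages. SCUBE1 and MPPED1 were at 0.4662 ± 0.413 and 0 CPM in macrophages and at 5.80 ± 1.19 and 75.2 ± 34.6 CPM in tissue.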

How the data were processed

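Paired reads of 50 bases were trimmed (BBtools) and mapped with HISAT2 by the authors, on Sscrofa11.1 with the annotation of Ensembl 99. The deposited values are StringTie gene counts without normalization, 1 column per sample. StringTie derives such counts from coverage. The library kit keeps strand; the strand setting of the counting is not given in the sources used here. As in the study's methods, a gene was kept if each sample of some group exceeded 10 CPM (11633 of 31907). The robust quasi-likelihood model of edgeR 4.0.16 (R 4.3.3) was fitted over the 5 groups after TMM scaling, with Benjamini-Hochberg adjustment over all kept genes. CPM uses the counts on kept genes times the TMM factor. A call required both adjusted p below 0.01 and a change of over 3-fold (macrophages) or 4-fold (tissue). P-values measure the spread between samples, some of which share a pig. DESeq2 1.42.0, limma-voom (limma 3.58.1), RLE factors, 2 other filters, an adjusted p under 0.05, only the groups compared, the pig as a block and each sample left out were alternatives, and 1 more, without the frontal cortex libraries of pigs 12599 and 12891, was chosen after seeing the data. TSPO, the lists and the rules were chosen with earlier results of these data known. The genes named were TSPO, the 10 nearest to it, its neighbours, all ligands and partners, and up to 4 called genes with the largest fold change per list and comparison; others were named after their values were seen.

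Symbols came from a table of Ensembl IDs, which matched 15029 genes, and sequences and exon lengths from RefSeq's Sscrofa11.1, searched with blastn 2.17.0. No 2 samples of a group were copies (lowest chi-square per degree of freedom 29.8 over 93 pairs). The pairing comes from the pig tags in the labels: deviations from the group means correlated on average at 0.08 in 25 pairs from the same pig and at -0.005 in 347 pairs from different pigs. The fit was tested on simulated data. Of the tested list genes 1 is counted but not reported here by itself.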

Additional observations from a re-analysis of the deposited data

Results flagged for a closer look

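In groups of 4 to 10 samples the highest or lowest sample was compared with its neighbours by Dixon's ratio at the 95% level, for TSPO, its ligands and partners and the named genes nearest to it. Of 72 groups 7 held such a sample, where chance flags about 1 in 20. TSPO itself had none.

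TSPOAP1 reached 18.1 CPM in the hippocampal microglia of pig 12781, where the next sample had 7.58 CPM, and the neuron markers of that library summed to 46.7 CPM, the most of its group. SLC25A4 reached 110 CPM in the tissue of pig 12829. OLR1 reached 0.609 CPM in the frontal cortex microglia of pig 12707, which also had the highest TSPO level of that group. SPIB reached 0.741 CPM in the frontal cortex microglia of pig 12599, whose lymphoid sum of 64.5 CPM was the highest of that group. JCHAIN reached 31.7 CPM in the cerebellar microglia of pig 12821. FAS was at 0 CPM in the frontal cortex microglia of pig 12891 and at 3.56 CPM in the hippocampal microglia of pig 12781. What sets these samples apart was not tested.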

How the results depend on the processing

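TSPO group means kept their order, and the log2 differences their direction, under RLE factors, no factors, a prior count of 0.5 and with each sample left out. RLE factors moved the median of all genes by -0.21 (log2) between hippocampal microglia and tissue and no factors by 0.22, with no called gene of the lists changing sign. With the pig as a replicate block, over the 2 pigs with both samples, macrophages exceeded microglia by 4.69 and tissue by 6.01 (log2; 6.57 unpaired). The counts of 20 and 26 called genes moved to 17 to 25 and 24 to 28; the upper ends are with filterByExpr or no filter, which tested 89 genes in place of 75 and shared 18 of the 20 and all 26 calls. The 4 genes called between regions became 9 with DESeq2, 11 at an adjusted p under 0.05 and 2 with the replicate block. Of the 10 genes nearest to TSPO, 7 were shared with a prior count of 0.5 and 1 with z-scored samples.

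With 1 sample left out, mean levels ranged from 53.3 to 65.8 CPM (macrophages), 1.46 to 1.83 (cerebellum), 0.0875 to 0.170 (frontal cortex), 1.17 to 1.54 (hippocampus) and 0.497 to 0.673 (tissue). Log2 differences ranged from 6.53 to 6.88 (macrophages minus microglia), 6.38 to 6.78 (macrophages minus tissue), 0.47 to 1.24 (hippocampal microglia minus tissue), 2.75 to 3.51 (cerebellum minus frontal cortex) and 2.55 to 3.28 (hippocampus minus frontal cortex). Called genes numbered 17 to 21, 25 to 26 and 3 to 6. Genes without a call changed sign near 0. ATAD3A against tissue went to 0.036 (filterByExpr), 0.034 (no filter) and 0.020 (only the groups compared), and PRKAR1A against macrophages to 0.056 (replicate block). With 1 sample left out ATAD3A ranged from -0.089 to 0.041, DBI from -0.096 to 0.089 and TSPOAP1 from -0.33 to 0.024. Of 1720 values of named genes 28 kept their direction but lost the call. The causes were not tested. Depth limits TSPO in brain samples, where 3 counts are 0.0763 to 0.150 CPM in microglia.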
